A study of Homo sapiens with 15 samples.

Results

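Zinc finger genes with a numbered ZNF or ZFP symbol were examined in HEK293T cells, an adenovirus- and SV40 T antigen-transformed line derived from human embryonic kidney, after siRNA knockdown of mRNA decapping factors. A gene was included when its symbol began with ZNF or ZFP followed by a digit, the CCCH-type ZFP36 genes apart, and when its mean over all 15 arrays was at least 6 log2 units. Of 509 such genes among the 14884 genes named by the platform table, 151 met the level, and 358 lay below it. The members were therefore chosen by their mean level over every array, whatever the siRNA. ZNF428 (mean 6.02), ZNF2 (6.03) and ZNF7 (6.04) stood just inside the limit. ZNF181 (5.999), ZNF668 (5.988) and ZFP62 (5.985) stood just outside it. RefSeq lists 145 of the members as protein coding. The other 6 are the readthrough transcript ZFP91-CNTF, the antisense RNAs ZNF143-AS1, ZNF503-AS2 and ZNF674-AS1, and the transcribed pseudogenes ZNF271P and ZNF767P.

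The arrays fell into 5 groups of 3, each of transiently transfected HEK293T cells. A pool of 4 siRNAs was directed against LOC550643, the source of NoBody, a microprotein that associates with P-bodies (cytoplasmic granules that hold mRNA decay factors). Other cells received siRNA against Dcp2, the catalytic subunit of the main mRNA decapping enzyme, against DcpS, the scavenger enzyme that hydrolyses the cap left after decay from the 3′ end, or against GAPDH, a glycolytic enzyme. The reference was a non-silencing siRNA with no human target. Every group, the reference included, was treated 48 hours after transfection with actinomycin D, an inhibitor of transcription, at 1 ug per mL for 4 hours before total RNA was taken. The question put by the series was whether the response to LOC550643 siRNA resembled that to Dcp2 siRNA and differed from those to DcpS and GAPDH siRNA. No group was left without actinomycin D, so a level here reflects what was present before actinomycin D and what remained after it, and these cannot be told apart. Nothing in the labels tells whether replicates were grown and transfected apart, and a p-value here can reflect no more than the variation between the arrays of a group, some of it perhaps technical.

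Zinc finger genes of the C2H2 type form the largest family of human transcription factors. Many carry a KRAB domain, which recruits the corepressor TRIM28 (KAP1) and, through it, the histone methyltransferase SETDB1, and silence transposable elements or genes. They lie in clusters, above all on chromosome 19, that arose by repeated duplication. Their mRNAs tend to be of low abundance and short-lived. Half-lives were not measured here. Members outside the KRAB class include corepressors (ZNF503, ZNF703), an RNA-binding protein (ZNF385A) and a factor in the maturation of the large ribosomal subunit (ZNF622).

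Promoter sequences are shown for some members of the comparisons below, picked by hand. ZFP90, ZFP1, ZNF620, ZNF614 and ZNF622 rose with LOC550643 siRNA, and ZNF503 and ZNF503-AS2 fell together with DcpS siRNA. Others called below, such as ZNF385A and ZNF703, are not shown. Each stretch shown is the 120 bases before the RefSeq start of the gene (GRCh38.p14), written 5′ to 3′ on the strand of the gene. Capitals mark matches, on either strand, to the letters GGGCGG (GC box), CCGGAAG (ETS), ACTACA (part of the ZNF143 motif) and to the palindromic NRF1 motif.
ZFP90, chr16:68539171-68539290, plus strand: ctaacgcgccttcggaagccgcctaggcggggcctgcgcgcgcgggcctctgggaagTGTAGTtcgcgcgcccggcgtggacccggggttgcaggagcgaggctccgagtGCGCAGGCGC
ZFP1, chr16:75148404-75148523, plus strand: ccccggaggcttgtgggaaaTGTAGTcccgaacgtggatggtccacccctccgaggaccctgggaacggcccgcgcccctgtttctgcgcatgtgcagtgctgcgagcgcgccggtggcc
ZNF620, chr3:40505919-40506038, plus strand: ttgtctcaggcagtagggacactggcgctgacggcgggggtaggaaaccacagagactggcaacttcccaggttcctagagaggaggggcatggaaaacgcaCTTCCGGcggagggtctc
ZNF614, chr19:52028380-52028499, minus strand: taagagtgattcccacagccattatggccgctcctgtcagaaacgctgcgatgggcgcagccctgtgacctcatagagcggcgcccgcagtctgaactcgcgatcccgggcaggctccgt
ZNF622, chr5:16465801-16465920, minus strand: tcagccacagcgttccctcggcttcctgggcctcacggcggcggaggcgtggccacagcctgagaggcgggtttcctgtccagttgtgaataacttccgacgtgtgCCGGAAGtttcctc
ZNF503, chr10:75401917-75402036, minus strand: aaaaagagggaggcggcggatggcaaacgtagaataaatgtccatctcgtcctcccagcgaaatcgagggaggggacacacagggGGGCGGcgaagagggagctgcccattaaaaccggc
ZNF503-AS2, chr10:75401408-75401527, plus strand: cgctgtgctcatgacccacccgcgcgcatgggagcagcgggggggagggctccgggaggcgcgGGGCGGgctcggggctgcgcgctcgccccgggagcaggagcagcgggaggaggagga
ZFP90 and ZFP1, both on chromosome 16, each held a match to ACTACA in this stretch, and ZFP90 also held an NRF1 match. ZNF620 and ZNF622 each held an ETS match. The stretch of ZNF614 held none of the motifs searched. ZNF503 and ZNF503-AS2 start 388 bases apart on opposite strands of chromosome 10, and each is transcribed towards the start of the other, so the stretch between the starts lies in both genes. Whether the probe sets tell their strands apart is not given in the sources used here.

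A promoter window of 300 bases (250 before the start and 50 after it) was given for 133 of the 151 members. The members' windows had a median GC content of 63.7%, against 58.3% over all 27305 windows, and a median CpG observed-to-expected ratio of 0.829 against 0.58. A GC box was found in 71.4% of the members' windows and in 44.6% of all windows. The ETS letters were found in 37.6% against 10.7%, the NRF1 motif in 19.5% against 6.28%, the cyclic AMP response element TGACGT in 17.3% against 8.32%, and ACTACA in 18.0% against 8.95%. The TATA box TATAAA was found in 1.5% of the members' windows and in 12% of all windows. The YY1 letters AAGATGG (6.77% against 6.06%) and the NF-Y box CCAAT (39.8% against 35.7%) were found at closer shares. These windows cover expressed members only, and the 358 zinc finger genes below the limit were not counted. The background holds genes whatever their level, so the shares were not compared with those of other expressed genes. A match is not a binding site. Among the 40 windows of members called in at least 1 comparison, the ETS letters stood in 35.0%, the NRF1 motif in 25%, and CCAAT in 22.5% (9 windows). The GC box stood in 72.5% of them, TGACGT in 20.0%, ACTACA in 20.0%, AAGATGG in 7.5% and TATAAA in 2.5%.

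The arrays were alike in scale, with medians over all probe sets of 4.01 to 4.08 log2 units and correlations of 0.983 to 0.991 within groups and 0.981 to 0.991 between groups. No 2 arrays held identical values. DCP2 was lower in the Dcp2 siRNA arrays (6.34 ± 0.10, SD, n = 3) than in the non-silencing arrays (8.14 ± 0.13). DCP2 was also lower with DcpS siRNA (7.335, 7.595 and 7.867, log2 change -0.54, limma adjusted p = 0.02524). GAPDH was lower in the GAPDH siRNA arrays (5.97 ± 0.24) than in the non-silencing arrays (7.20 ± 0.10). The knockdown of LOC550643 and of DCPS was not analysed here, since the platform table names no probe set for either. Of the HEK293T markers, 7 of 12 were measured and 4 had a mean of at least 6, the highest being KRT18 at 8.72. No measured marker of blood cells (2), liver (4), fibroblasts (2) or other epithelium (3) reached a mean of 6, the highest being TTR at 5.31. The summed linear level of these other markers ranged over the arrays from 17 to 22 for blood cells, 81 to 100 for liver, 12 to 21 for fibroblasts and 57 to 68 for epithelium. The summed HEK293T markers ranged from 857 to 1149.

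The members' mean levels ran from 6.02 to 9.64 log2 units, with a median of 6.87. Those with the highest probe set values were ZNF121, ZNF512, ZNF280C, ZNF207 (a kinetochore and spindle protein), ZNF146 and ZNF768. Values of different probe sets do not rank transcripts by abundance, because probes differ in their response. The members varied more over the arrays than all genes with a mean of at least 6. These 6205 genes, the members included, are called genes of like level below. They share only the lower limit, and their levels were not matched to those of the members. The members' median SD over the 15 arrays was 0.222 log2 units, against 0.177 for the 6205 genes. With the group means removed, the median residual SD was 0.169 against 0.134. The wider spread was thus seen among replicates of a group.

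When each member was set to 0 at its own mean over the arrays, the members as a body stood highest in the LOC550643 arrays and lowest in 1 non-silencing array. The median over the 151 members was 0.097, 0.053 and 0.180 in LOC550643 replicates 1, 2 and 3. It was 0.050, 0.044 and 0.051 in the Dcp2 arrays. All 6 of these arrays lay above all 3 non-silencing arrays, whose medians were -0.223, 0.009 and -0.003. The DcpS arrays (-0.142, 0.001 and 0.035) and the GAPDH arrays (-0.034, -0.081 and 0.035) overlapped the non-silencing arrays. The same median over all 6205 genes of like level stayed between -0.015 and 0.041 on every array. In LOC550643 replicate 3, 127 of the 151 members were above their own mean. In non-silencing replicate 1 only 28 were, and in DcpS replicate 1 only 37. The group means of the array medians were 0.11 ± 0.064 (SD, n = 3) for LOC550643, 0.048 ± 0.004 for Dcp2, -0.035 ± 0.094 for DcpS, -0.027 ± 0.058 for GAPDH and -0.072 ± 0.131 for non-silencing. The spread between the non-silencing replicates was thus the widest of the 5 groups.

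**Figure D1:**
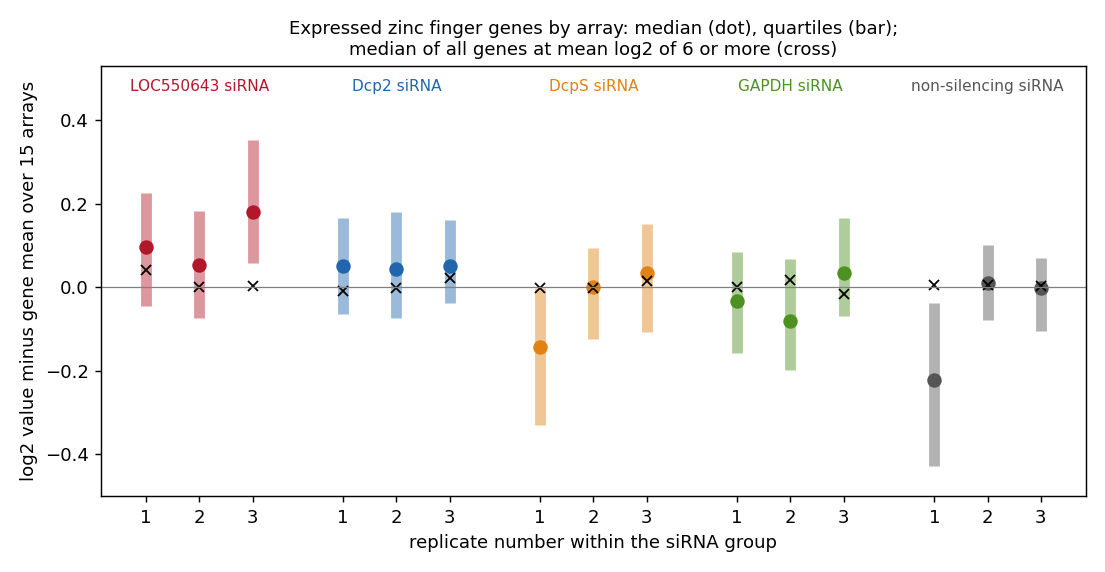
Level of the 151 expressed zinc finger genes on each array, as log2 value minus the mean of the gene over 15 arrays. Dots give the median over the genes, bars the quartiles, and crosses the median over all 6205 genes with a mean log2 of at least 6; the highest dot is LOC550643 replicate 3 (0.180) and the lowest non-silencing replicate 1 (-0.223), while the crosses stay between -0.015 and 0.041.

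A pattern shared by replicates of different groups moved with these medians. The leading axis of variation among replicates was the first principal component of the values with group means removed. It was computed from the 14375 genes that are not zinc finger genes by symbol and held 24.7% of the variance within groups. Each array was then scored on it with only the gene means over all 15 arrays removed. The scores therefore also hold differences between groups, so adjusting for them can take out part of an siRNA effect. Non-silencing replicate 1 had the lowest score on the axis (-19.34), followed by DcpS replicate 1 (-16.08) and GAPDH replicate 2 (-11.41). GAPDH replicate 3 (11.76), LOC550643 replicate 3 (10.97) and Dcp2 replicate 1 (10.57) had the highest. The Dcp2 arrays averaged 7.39 on it and the non-silencing arrays -5.33, while the LOC550643 arrays averaged 0.75. Medians and counts are therefore given below also with this score as a covariate and without non-silencing replicate 1.

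LOC550643 siRNA against the non-silencing siRNA raised 9 members and lowered 1. The risers were ZFP90, ZFP1, ZNF620, ZNF614, ZNF567, ZNF766, ZNF622, ZNF385A and ZNF652. Their changes ran from 0.564 to 0.997 log2 units (limma's moderated test, Benjamini-Hochberg adjusted over 14884 genes, adjusted p under 0.05, called changed below). The share of members called higher was 5.96%, beside 0.658% of all named genes and 1.24% of the genes with a mean of at least 6. The share called lower was 0.662%, beside 0.907% and 2.03%. Counted in either direction, 6.62% of the members were called, beside 1.57% and 3.27%. Below the level limit, 11 of the 358 zinc finger genes were called, all of them higher.

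The shift reached beyond the called members. The median change of the 151 members was 0.205 log2 units, against 0.018 over the genes with a mean of at least 6, and 120 members (79.5%) had a change above 0, against 54.1% of those genes. At an unadjusted p under 0.05 stood 56 members (37.1%), against 20% of the genes of like level. The 358 zinc finger genes below the limit had a median change of 0.092, with 249 (69.6%) above 0. Without non-silencing replicate 1 the members' median fell to 0.138, 106 (70.2%) stayed above 0, and 6 were called, all higher. It was also 6 without LOC550643 replicate 2. With the score of the replicate axis as a covariate the median was 0.162, and 16 members were called higher and 1 lower. Over all named genes the calls were 233 as reported, 354 with this covariate and 79 without non-silencing replicate 1.

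ZFP90, a KRAB repressor, gave the clearest separation. Its values were 8.002, 7.82 and 7.97 in the LOC550643 arrays and 7.13, 7.08 and 7.15 in the non-silencing arrays, a rise of 0.81 ± 0.094 log2 units (SE), or 1.76-fold (limma adjusted p = 0.0002898). The LOC550643 arrays also lay above all 9 arrays of the other siRNAs, of which the highest read 7.55. ZNF620 read 6.83, 6.50 and 6.55 with LOC550643 siRNA and 5.96, 5.79 and 5.70 with the non-silencing siRNA (1.75-fold, adjusted p = 0.003355). Its highest value in the other 12 arrays was 6.10, so the LOC550643 arrays stood apart from all of them.

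ZNF614 read 6.89, 6.92 and 7.12 against 5.98, 6.38 and 6.30 (1.68-fold, adjusted p = 0.007973). Here too the lowest LOC550643 value exceeded every value in the other 12 arrays, the highest of which was a GAPDH array at 6.54. ZFP1 read 7.21, 7.09 and 7.33 against 6.65, 6.45 and 6.54 (1.58-fold, adjusted p = 0.003169), but 2 DcpS arrays (7.13 and 7.12) reached into the LOC550643 range. ZNF622, which acts in the maturation of the large ribosomal subunit, read 6.36, 6.42 and 6.36 against 5.39, 5.69 and 5.85 (1.66-fold, adjusted p = 0.005746). ZNF385A, an RNA-binding protein that also binds p53, read 8.02, 8.15 and 8.02 against 7.57, 7.22 and 7.42 (1.57-fold, adjusted p = 0.00725). The calls of these 6 genes held with any of the 6 arrays left out. For ZNF614, ZNF622 and ZNF385A the adjusted p was 0.05057 when only these 2 groups were fitted.

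The largest estimates belonged to less steady genes. ZNF567 read 7.30, 7.44 and 7.82 with LOC550643 siRNA and 6.15, 6.42 and 6.996 with the non-silencing siRNA, a rise of 0.997 ± 0.214 log2 units (adjusted p = 0.02618). The groups did not overlap, but the non-silencing values spread widely, and the GAPDH arrays (7.215, 7.001 and 7.505) reached into the LOC550643 range. ZNF766 read 6.90, 7.06 and 7.30 against 5.65, 6.54 and 6.45 (0.872 ± 0.198, adjusted p = 0.03654). Its call was lost without non-silencing replicate 1 or any LOC550643 array, with adjusted p from 0.0676 to 0.1538. That of ZNF567 was lost when replicate 2 or 3 of LOC550643, or replicate 1 or 2 of non-silencing, was left out (0.06757 to 0.1476). ZNF652, a transcriptional repressor, read 8.33, 8.19 and 7.97 against 7.42, 7.71 and 7.67 (0.564 ± 0.129, adjusted p = 0.03724), a call lost without any of the 6 arrays but LOC550643 replicate 3 (0.05906 to 0.18).

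ZNF428 was the member that fell. It read 5.68, 5.49 and 5.91 with LOC550643 siRNA and 6.20, 6.20 and 6.15 with the non-silencing siRNA, lower by 1.40-fold (log2 change -0.49, adjusted p = 0.02511). The groups did not overlap, and the call was lost without 5 of the 6 arrays in turn, LOC550643 replicate 3 being the exception (adjusted p 0.05564 to 0.1109). Several members had estimates as large as those of the risers and were not called. ZNF121, the member with the highest probe set value, read 10.09, 10.08 and 10.27 against 9.20, 9.83 and 9.59 (0.605, adjusted p = 0.06393).

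**Figure D2:**
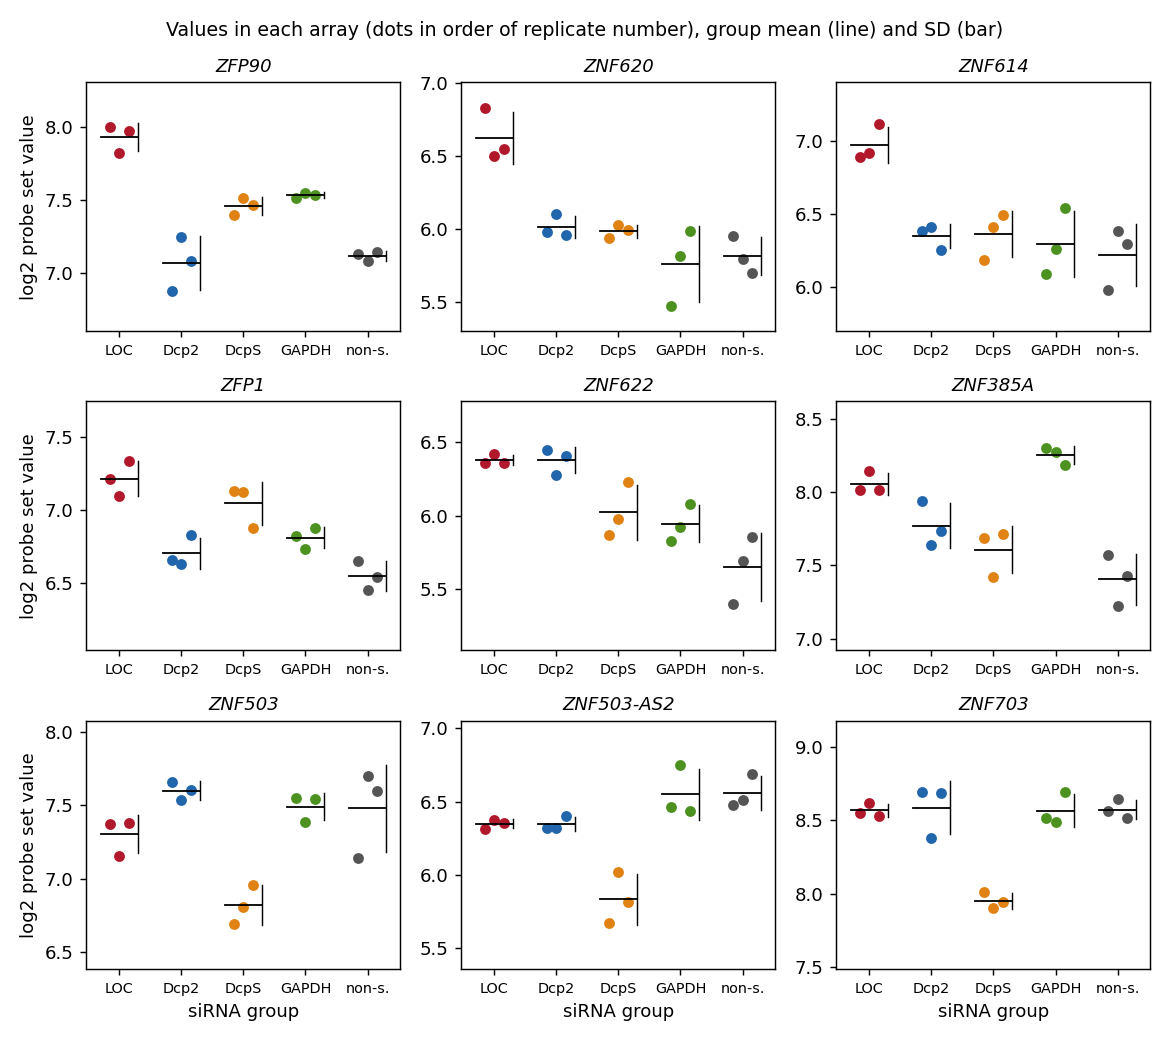
Log2 probe set values of 9 members in each array of the 5 siRNA groups, with dots in order of replicate number, lines for group means and bars for SD (n = 3). ZFP90, ZNF620 and ZNF614 are highest in the 3 LOC550643 arrays, ZNF622 is high with LOC550643 and Dcp2 siRNA, ZNF385A with GAPDH and LOC550643 siRNA, and ZNF503, ZNF503-AS2 and ZNF703 are lowest in the 3 DcpS arrays.

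Dcp2 siRNA raised 3 members and lowered 1 against the non-silencing siRNA: ZNF766, ZNF622 and ZNF410 were higher and ZNF511 was lower. This is 2.65% of the members, beside 1.98% of all named genes and 4.09% of the genes with a mean of at least 6. Higher calls stood beside 1.05% and 2.1% of these genes, and lower calls beside 0.927% and 2%. The members' median change was 0.131 log2 units (-0.005 over the genes of like level), and 108 of 151 were above 0 (71.5% against 49.1%). Without non-silencing replicate 1 the median was 0.052 and 1 member was called. Adjusted for the axis score it was 0.034 and again 1 member, ZNF622, was called (adjusted p = 0.0177). The count was also 1 without Dcp2 replicate 1 or without Dcp2 replicate 2. Over all named genes the calls were 294 as reported, 133 with the axis covariate and 41 without non-silencing replicate 1. After centring each array on its median, 4 members were called, all higher.

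ZNF622 rose as much with Dcp2 siRNA as with LOC550643 siRNA. It read 6.45, 6.28 and 6.41 in the Dcp2 arrays, above the non-silencing values of 5.39, 5.69 and 5.85 (1.66-fold, SE 0.12 log2 units, adjusted p = 0.00887), and its call held with any of the 6 arrays left out but not when only these 2 groups were fitted (0.05119). ZNF766 read 7.07, 7.04 and 7.21 (1.85-fold, adjusted p = 0.03282), and its call was lost without any of the Dcp2 arrays or non-silencing replicate 1 (0.08908 to 0.1239). Both comparisons use the same non-silencing arrays, of which replicate 1 had the lowest value of each gene. ZNF410, an activator of the remodeller gene CHD4, read 7.04, 7.04 and 6.95 against 6.42, 6.59 and 6.46 (1.43-fold, adjusted p = 0.04704), and its call was lost without any of the 6 arrays (0.07957 to 0.1877). ZNF511 read 7.40, 7.44 and 7.66 against 8.08, 7.94 and 7.75 (log2 change -0.42, adjusted p = 0.04212). These values do not overlap but come close, and the call was lost without replicate 1 or replicate 2 of either group (0.1139 to 0.2042) and after centring on array medians.

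Against the non-silencing siRNA, DcpS siRNA lowered ZNF503-AS2, ZNF503, ZNF703, ZNF770, ZNF511 and ZNF692 and raised ZNF100 and ZFP1, 8 members in all (5.3%, beside 3.61% of all named genes and 7.28% of the genes with a mean of at least 6). By direction, 6 of 151 (3.97%) were lower, beside 1.85% and 3.74%, and 2 were higher, beside 1.76% and 3.55%. The members' median change was near 0 (0.045, against -0.004), and 88 were above 0. Without non-silencing replicate 1 the median turned to -0.039, with 1 member called higher and 4 lower. Adjusted for the axis score the median was 0.033, and 9 members were called higher and 9 lower. Calls over all named genes rose with it too, from 538 to 1001, so the rise was not particular to the members. Without non-silencing replicate 1 they were 394. After quantile normalization of the named genes the members' calls were 3 higher and 6 lower, and after centring on array medians 3 and 5. The count was 4 without DcpS replicate 2 or non-silencing replicate 2.

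Of the 6 decreases with DcpS siRNA, the largest estimates belonged to ZNF503-AS2, ZNF503 and ZNF703. ZNF503 and ZNF703 are the human members of the NET family of corepressors, and ZNF503-AS2 is the antisense neighbour of ZNF503. The share of members called lower was near that of the genes of like level (3.97% against 3.74%). ZNF703 read 8.01, 7.90 and 7.94 in the DcpS arrays and 8.56, 8.65 and 8.51 in the non-silencing arrays, lower by 1.54-fold (log2 change -0.62, SE 0.097, adjusted p = 0.002174). All 12 other arrays lay at 8.38 or above, so the DcpS arrays stood apart from every other group. ZNF503 read 6.69, 6.80 and 6.96 against 7.14, 7.70 and 7.60 (1.58-fold lower, adjusted p = 0.007913). Non-silencing replicate 1, at 7.14, was the lowest of the other 12 arrays, which reached 7.70. ZNF503-AS2 read 5.67, 6.02 and 5.81 against 6.48, 6.51 and 6.69 (1.66-fold lower, adjusted p = 0.001501), and the lowest of the other 12 arrays was 6.32. The calls of these 3 genes held with any of the 6 arrays left out and when the axis score was added to the fit, where the changes were -0.70 (ZNF503), -0.73 (ZNF503-AS2) and -0.63 (ZNF703). When only the DcpS and non-silencing arrays were fitted, ZNF503 missed the threshold (adjusted p = 0.0998).

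ZNF770 read 6.58, 6.62 and 6.88 with DcpS siRNA and 7.40, 7.36 and 7.17 with the non-silencing siRNA (1.53-fold lower, adjusted p = 0.01761), a call lost with the mean of its 2 probe sets. ZNF511, which also fell with Dcp2 siRNA, read 7.53, 7.39 and 7.43 against 8.08, 7.94 and 7.75 (1.39-fold lower, adjusted p = 0.01346). ZNF692, a repressor of gluconeogenic genes, read 7.52, 7.54 and 7.74 against 7.92, 8.17 and 7.85 (1.30-fold lower, adjusted p = 0.04743). The DcpS arrays did not overlap the non-silencing arrays for these 3 genes, but the distances were small beside those of ZNF703. The calls were lost without DcpS replicate 2, non-silencing replicate 1 or non-silencing replicate 2, and for ZNF770 and ZNF692 also without DcpS replicate 1. Adjusted p values then lay between 0.06243 and 0.07249 for ZNF770, 0.05635 and 0.06414 for ZNF511, and 0.0763 and 0.2047 for ZNF692, whose call was also lost after centring on array medians.

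ZFP1 rose with DcpS siRNA to 7.13, 7.12 and 6.88 (1.41-fold, adjusted p = 0.01026), also above all 3 non-silencing arrays, and its call was lost without non-silencing replicate 2 (0.05716). ZNF100, a KRAB-type gene of the chromosome 19 clusters, read 7.14, 7.26 and 7.58 against 6.52, 6.64 and 6.73 (1.62-fold, adjusted p = 0.03839). It was lost without 2 DcpS arrays (replicates 2 and 3) or any non-silencing array (0.06315 to 0.1481).

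GAPDH siRNA, the unrelated knockdown, raised 2 members, ZNF385A and ZFP90. This is 1.32% of the members, beside 2% of all named genes and 4.13% of the genes with a mean of at least 6. Higher calls stood beside 0.726% and 1.56% of these genes, and lower calls, of which the members had none, beside 1.27% and 2.56% (17.2% of the members had an unadjusted limma p under 0.05 in either direction). The members' median change was 0.053 (-0.007 over the genes of like level), with 91 above 0, and it turned to -0.010 without non-silencing replicate 1, with 1 member called. The count was also 1 without non-silencing replicate 2, GAPDH replicate 1 or GAPDH replicate 3. Adjusted for the axis score the median was 0.018, and 5 members were called higher and 2 lower. Over all named genes the calls were 297 as reported, 500 with this covariate and 176 without non-silencing replicate 1. ZNF385A read 8.30, 8.28 and 8.19 in the GAPDH arrays against 7.57, 7.22 and 7.42 in the non-silencing arrays (1.80-fold, SE 0.111 log2 units, adjusted p = 0.0007223). Those 3 arrays were the highest of all 15 for this gene, and the call held with any of the 6 arrays left out. ZFP90 read 7.51, 7.55 and 7.54 against 7.13, 7.08 and 7.15 (1.33-fold, adjusted p = 0.03284). The GAPDH values lay close together (SD 0.02), yet the call was lost without any of the 6 arrays (0.06755 to 0.1251).

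Against non-silencing, 18 members were called with at least 1 siRNA and 133 with none. The 18 are 11.9% of the members, beside 7.46% of all named genes and 15.2% of the genes with a mean of at least 6. Of the 18, 12 were called with 1 siRNA and 6 with 2: ZNF622 and ZNF766 with LOC550643 and Dcp2, ZFP1 with LOC550643 and DcpS, ZFP90 and ZNF385A with LOC550643 and GAPDH, and ZNF511 with Dcp2 and DcpS. The 6 are 3.97% of the members, beside 1.31% and 2.76%. These comparisons share the non-silencing arrays, so a high or low value there enters each of them.

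Set directly against the other siRNAs, LOC550643 siRNA again gave mostly higher values. Against Dcp2 siRNA 13 members were higher and 1 lower (8.61% higher, beside 1.65% of all named genes and 3.13% of the genes with a mean of at least 6). Against DcpS siRNA 18 were higher and 1 lower (11.9%, beside 3.49% and 6.64%). Against GAPDH siRNA 10 were higher and 1 lower (6.62%, beside 2.48% and 4.56%). In the lower direction 0.662% of the members were called in each, beside 1.56%, 2.91% and 1.61% of all named genes and 3.19%, 5.67% and 3.38% of the genes of like level. In either direction the shares of members were 9.27%, 12.6% and 7.28%, beside 3.2%, 6.4% and 4.08% of all named genes and 6.32%, 12.3% and 7.95% of the genes of like level. The members' median changes were 0.068, 0.148 and 0.140 log2 units in the same order, with 96, 115 and 115 of 151 above 0 (63.6%, 76.2% and 76.2%). Over the genes of like level the medians were 0.017, 0.017 and 0.025, with 53.5%, 52.8% and 55.4% above 0. Adjusted for the axis score the members' medians were 0.112, 0.123 and 0.129. The 3 comparisons share the LOC550643 arrays.

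ZNF620, ZNF614 and ZFP90 were called higher with LOC550643 siRNA than with each other siRNA, but some of these calls rested on single arrays. ZNF620 was higher by 0.612 ± 0.123 log2 units against Dcp2 (adjusted p = 0.01287), by 0.639 against DcpS (adjusted p = 0.005152) and by 0.865 against GAPDH (adjusted p = 0.0008066). ZNF614 was higher by 0.622, 0.609 and 0.675 in the same order (adjusted p = 0.01555, 0.01011 and 0.007477). Against Dcp2 the call of ZNF620 was lost without LOC550643 replicate 1, Dcp2 replicate 1 or Dcp2 replicate 3 (0.0532 to 0.08546), and that of ZNF614 without LOC550643 replicate 3 or the same Dcp2 arrays (0.05388 to 0.06871). Against DcpS ZNF614 was lost without DcpS replicate 1 (0.05427). ZFP90 was higher by 0.863 against Dcp2, whose arrays read 6.88, 7.25 and 7.08 (adjusted p = 0.0002066). It was also higher by 0.474 against DcpS (7.40, 7.51 and 7.47, adjusted p = 0.00608) and by 0.400 against GAPDH (adjusted p = 0.02407), the last lost without any of the 6 arrays but LOC550643 replicate 2 (0.05755 to 0.1063). In order of group means ZFP90 stood at 7.93 with LOC550643, 7.53 with GAPDH, 7.46 with DcpS, 7.12 with non-silencing and 7.07 with Dcp2 siRNA. Below LOC550643, no neighbours in this order were called different (Dcp2 against non-silencing -0.05, adjusted p = 0.8608).

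ZNF652 was higher with LOC550643 than with Dcp2 siRNA by 0.784 ± 0.129 log2 units (Dcp2 arrays 7.28, 7.31 and 7.56, adjusted p = 0.003627), and this call held with any array left out. ZNF302, a KRAB-type gene, was higher by 0.678 ± 0.168 against Dcp2 (7.06, 6.95 and 6.65 against 5.90, 6.08 and 6.64, adjusted p = 0.03771). Its values nearly met at 6.65 and 6.64, and the call was lost without replicate 1 or 2 of either group (0.1229 to 0.1849). ZNF428 was lower with LOC550643 siRNA than with Dcp2 siRNA (6.18, 6.20 and 6.34, log2 change -0.55, adjusted p = 0.009348). It was also lower than with GAPDH siRNA (6.17, 6.02 and 6.21, log2 change -0.44, adjusted p = 0.02519). The first of these calls was lost without LOC550643 replicate 2 (0.05008), the second without 4 arrays in turn (LOC550643 replicates 1 and 2 and GAPDH replicates 1 and 3, 0.08278 to 0.1104).

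ZNF121 was higher with LOC550643 siRNA (10.09, 10.08 and 10.27) than with DcpS siRNA (9.10, 9.42 and 9.61) by 0.771 ± 0.152 log2 units (adjusted p = 0.005969). Against GAPDH siRNA (9.34, 9.30 and 9.61) it was higher by 0.731 (adjusted p = 0.0116). None of its LOC550643 values overlapped those of any other group, the highest of which was a non-silencing array at 9.83, and the second call was lost without GAPDH replicate 1 or 2 (0.05045 and 0.05113). ZNF770 (7.62, 7.25 and 7.34 against 6.58, 6.62 and 6.88 with DcpS, 0.714, adjusted p = 0.004934) differed with no overlap and held with any array left out. ZNF567 was higher by 0.903 ± 0.214 against DcpS, whose arrays read 6.30, 6.50 and 7.04 (adjusted p = 0.01936), and was lost without LOC550643 replicate 3 or DcpS replicate 1 or 2 (0.07036 to 0.08974). ZNF420, a KRAB protein that binds p53, read 6.73, 6.46 and 6.69 with LOC550643 siRNA and 5.88, 5.77 and 6.17 with GAPDH siRNA (0.691 ± 0.146, adjusted p = 0.01257). It was lost without LOC550643 replicate 1 or GAPDH replicate 1 or 2 (0.05329 to 0.0653). ZNF384, a fusion partner in leukaemia, was the member lower than with DcpS siRNA (8.21, 8.29 and 8.39 against 8.66, 8.68 and 8.59, log2 change -0.35, adjusted p = 0.03611), and the call was lost without replicate 1 or 2 of either group (0.09726 to 0.1389) and after quantile normalization.

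The counts in these comparisons moved with single arrays. Against Dcp2 siRNA the 14 calls fell to 3 without Dcp2 replicate 1, to 5 without LOC550643 replicate 1, to 8 without LOC550643 replicate 2 or Dcp2 replicate 2, and to 9 without Dcp2 replicate 3. Against DcpS siRNA the 19 calls fell to 10 without DcpS replicate 1 and to 12 without LOC550643 replicate 1 or 3. Against GAPDH siRNA the 11 calls fell to between 4 and 7 without any of the 6 arrays. Lower calls numbered at most 2 in each of these counts.

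Between Dcp2 and DcpS siRNA, 8 members were higher with Dcp2 and 2 lower (6.62% in all, beside 5.64% of all named genes and 11.2% of the genes with a mean of at least 6). Higher calls stood beside 2.44% and 5.01% of these genes, and lower calls beside 3.2% and 6.14%. ZFP91-CNTF, a readthrough transcript of ZFP91 into CNTF whose probe set can share sequence with ZFP91, read 8.35, 8.30 and 8.26 against 7.28, 7.63 and 7.54 (1.77-fold, adjusted p = 0.001949). ZNF503 read 7.66, 7.54 and 7.61 against 6.69, 6.80 and 6.96 (1.72-fold, adjusted p = 0.001962). ZNF703 read 8.70, 8.38 and 8.69 against 8.01, 7.90 and 7.94 (1.55-fold, adjusted p = 0.001254). None of these 3 genes had overlapping values, and their calls held with any array left out. In the other direction, ZNF277 was lower with Dcp2 siRNA (7.40, 7.58 and 7.57 against 8.12, 7.78 and 8.03, log2 change -0.46, adjusted p = 0.04509), a call lost without any array but DcpS replicate 2 (0.08764 to 0.1684). ZFP90 was lower by 1.31-fold (adjusted p = 0.02281), a call lost without Dcp2 replicate 1 or 3 or DcpS replicate 2 or 3 (0.05501 to 0.116). The count of 10 fell to 4, 5 and 4 without Dcp2 replicates 1, 2 and 3, to 4 without DcpS replicate 1 and to 6 without DcpS replicate 2.

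Between Dcp2 and GAPDH siRNA, 4 members were higher with Dcp2 and 4 lower (5.3%, beside 2.79% of all named genes and 5.69% of the genes with a mean of at least 6). Higher calls stood beside 1.74% and 3.58% of these genes, and lower calls beside 1.05% and 2.11%. After quantile normalization the split was 3 and 5. ZNF467 read 6.04, 5.66 and 6.07 against 6.67, 6.54 and 6.72 (1.65-fold lower, adjusted p = 0.004687), and of the 6 genes named here only its call held with any array left out. ZNF385A (log2 change -0.48, adjusted p = 0.02711) and ZFP90 (log2 change -0.46, adjusted p = 0.01404) were also lower with Dcp2 siRNA. ZNF341, which drives transcription of STAT3, read 6.86, 6.78 and 6.87 against 6.22, 6.08 and 6.29 (1.56-fold higher, adjusted p = 0.0373). ZNF420 (0.605 log2 units, adjusted p = 0.03494) and ZNF644 (0.480, adjusted p = 0.02383), a partner of the histone methyltransferases G9a and GLP, were higher with Dcp2 siRNA. The ZNF644 values were 7.84, 7.90 and 7.70 with Dcp2 siRNA and 7.33, 7.15 and 7.52 with GAPDH siRNA. Left-out arrays ended the calls of ZNF341 (any of the 6, 0.05433 to 0.1541), ZNF420 (Dcp2 replicates 1 and 3 and GAPDH replicates 1 and 2, 0.1185 to 0.1633), ZNF644 (replicates 1 and 2 of both groups, 0.0768 to 0.124), ZNF385A (Dcp2 replicates 2 and 3 and GAPDH replicates 1 and 2, 0.09501 to 0.1306) and ZFP90 (Dcp2 replicate 1 and GAPDH replicate 2, 0.05939 and 0.07708). The count of 8 fell to 2, 3 and 5 without Dcp2 replicates 1, 2 and 3, and to 2 and 1 without GAPDH replicates 1 and 2.

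Between DcpS and GAPDH siRNA, 4 members were higher with DcpS and 11 lower (9.93%, beside 5.98% of all named genes and 11.8% of the genes with a mean of at least 6). The lower calls, 11 of 151, stood beside 2.47% of all named genes and 5.14% of the genes of like level, and the 4 higher calls beside 3.51% and 6.66%. ZNF503-AS2 (6.46, 6.75 and 6.44 with GAPDH siRNA) was lower with DcpS siRNA by 1.64-fold (adjusted p = 0.0006601) and ZNF503 (7.55, 7.39 and 7.54) by 1.60-fold (adjusted p = 0.00415). ZNF385A read 7.69, 7.42 and 7.71 with DcpS siRNA, lower than with GAPDH siRNA by 1.57-fold (adjusted p = 0.002026). None of these 3 overlapped, and their calls held with any array left out, as did that of ZNF384 (higher by 0.499, DcpS 8.66, 8.68 and 8.59, GAPDH 8.11, 7.99 and 8.34, adjusted p = 0.003913). ZNF358 read 9.23, 8.67 and 8.84 against 8.24, 8.30 and 7.71 (1.78-fold higher, adjusted p = 0.03091) and ZNF382, a KRAB-type gene, 6.31, 6.003 and 6.65 against 5.87, 5.99 and 5.52 (1.44-fold higher, adjusted p = 0.04351). Both were lost without replicate 1 or 3 of either group (0.05426 to 0.1382 for ZNF358, 0.08318 to 0.1826 for ZNF382), and that of ZNF382 also after centring on array medians. The count of 15 fell to 8 without DcpS replicate 1 and to 9 without GAPDH replicate 1. The members' median change was 0.004 and turned to -0.014 after quantile normalization and to -0.013 after centring on array medians.

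**Figure D3:**
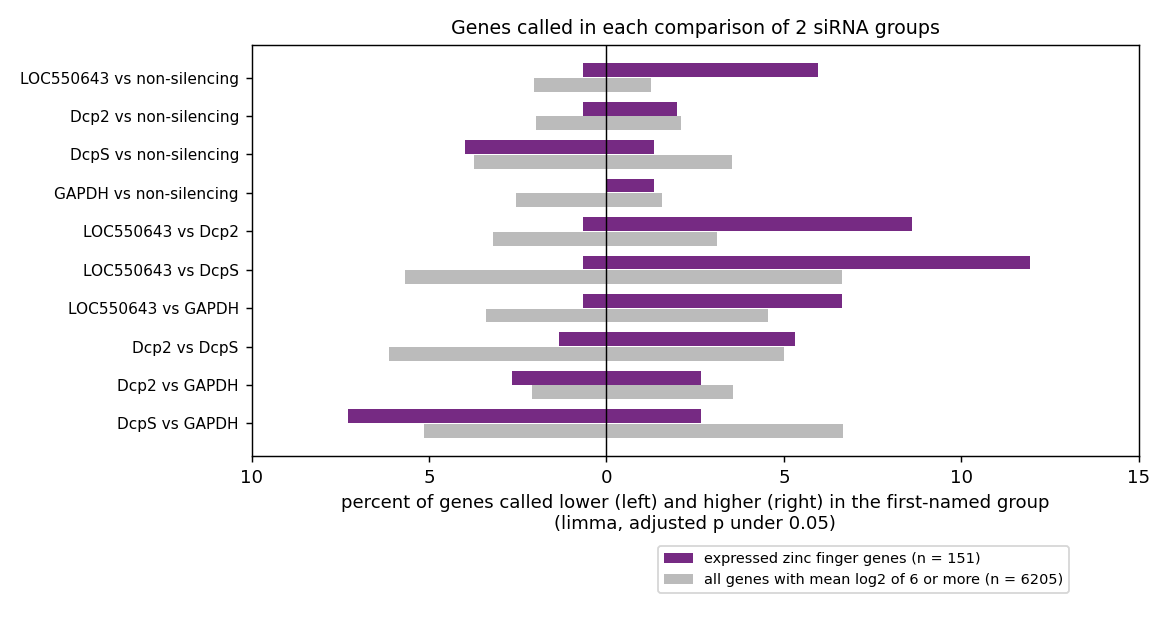
Share of genes called lower (left) and higher (right) in the first-named group of each comparison, in percent, for the 151 expressed zinc finger genes and for all 6205 genes with a mean log2 of at least 6. The members called higher exceed the share of all genes most in the comparisons that start with LOC550643 (5.96% against 1.24% with non-silencing, 11.9% against 6.64% with DcpS), and those called lower in DcpS against GAPDH.

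Over the 5 groups together, the F test called 33 of the 151 members (21.9%, beside 12.2% of all named genes and 24.2% of the genes with a mean of at least 6). The members were thus called about as often as genes of like level. Of the 358 zinc finger genes below the limit, 35 (9.78%) were called. The smallest adjusted p values belonged to ZFP90 (1.55e-04), ZNF385A (0.0007181), ZNF703 (0.001185), ZNF620 (0.001465) and ZNF503-AS2 (0.001502). They were followed by ZFP1 (0.002175), ZNF622 (0.002596), ZNF503 (0.003953), ZFP91-CNTF (0.00484) and ZNF614 (0.005631). In at least 1 of the 10 comparisons 44 members (29.1%) were called, and in none 107. The share called in at least 1 was 16.8% of all named genes and 31.5% of the genes with a mean of at least 6, so the members stood near genes of like level here too. The 44 did not share a single profile. A large set was high in the LOC550643 arrays, a smaller set was low in the DcpS arrays, and ZNF385A and ZNF467 had their highest group mean with GAPDH siRNA.

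**Figure D4:**
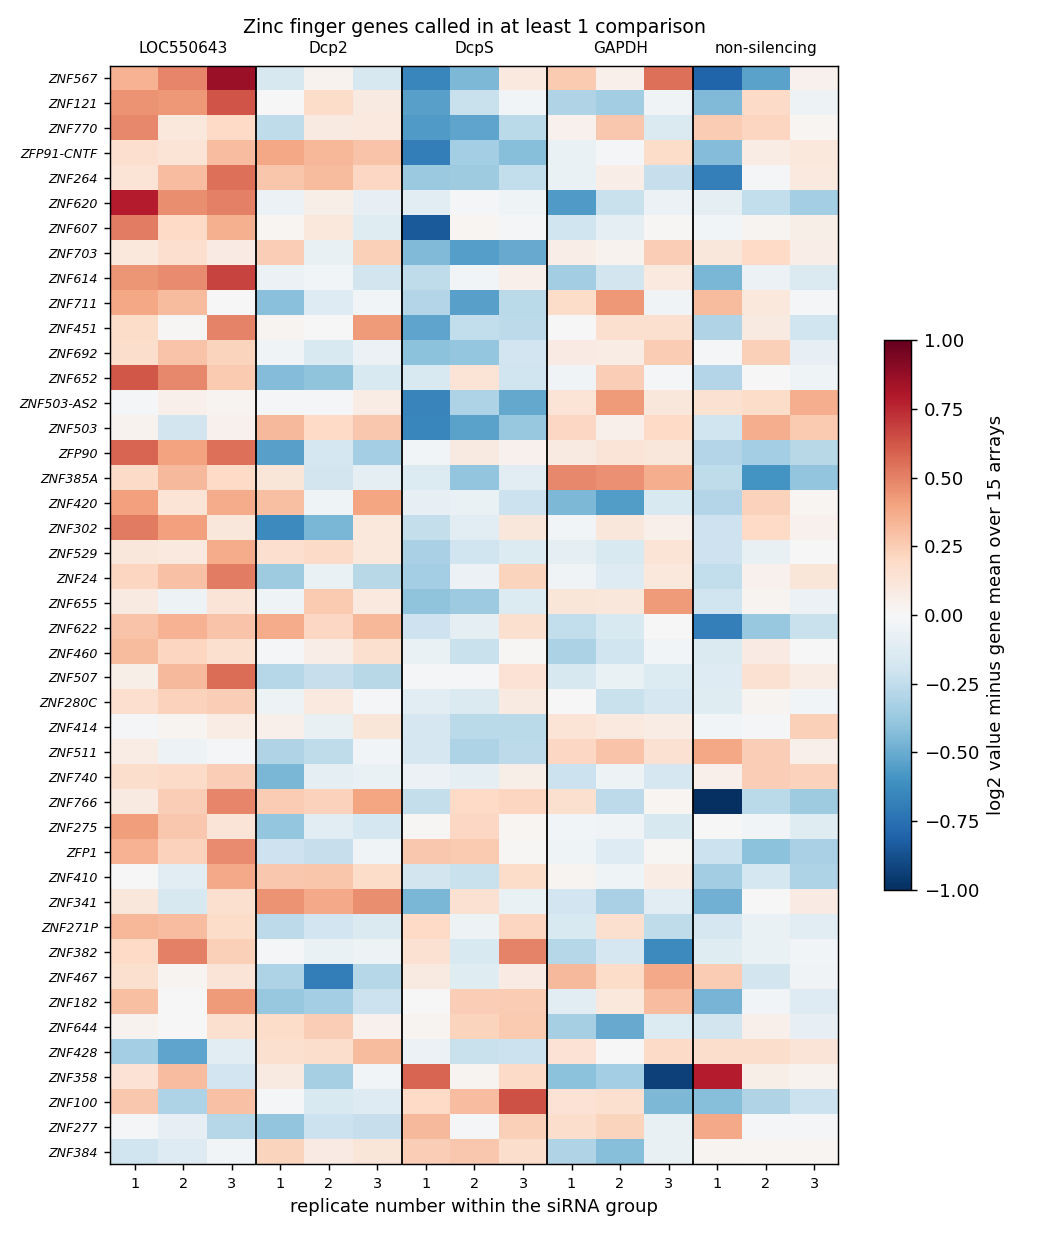
Log2 value minus the mean of the gene over 15 arrays, by colour, for the 44 members called in at least 1 of the 10 comparisons (vertical) on each array (horizontal); the colour scale ends at 1 and -1, and genes are ordered by the LOC550643 mean minus the DcpS mean. The upper genes are, by this order, high in the LOC550643 arrays and low in DcpS arrays, while the column of non-silencing replicate 1 differs from those of replicates 2 and 3.

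Members also varied together among replicates. Over the 15 arrays the median Pearson correlation between 2 members was 0.209, against 0.010 between 2 genes with a mean of at least 6. With group means removed it was 0.182 against 0.031, and the middle part of the pairs ran from -0.152 to 0.514. Leaving out non-silencing replicate 1, an alternative chosen after seeing the data, gave 0.130 against 0.036. The pairs share the arrays, so these correlations are descriptions without a test.

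**Figure D5:**
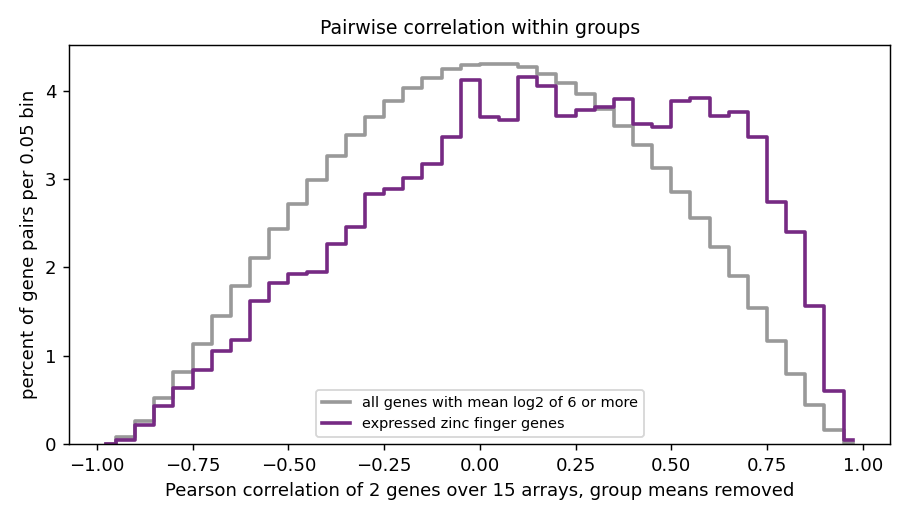
Distribution of Pearson correlations between pairs of genes over 15 arrays with group means removed, in percent of pairs per bin of 0.05, for the 151 members and for all genes with a mean log2 of at least 6. The curve of the members lies to the right, with a median of 0.182 against 0.031.

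Set against the mean of all other members within groups, a member correlated at a median of 0.573. The correlation was above 0 for 116 members (76.8%) and over 0.5 for 84 (55.6%). Among the 6054 other genes of like level, 23.8% correlated over 0.5 with the members' mean and 22.2% under -0.5. ZNF317 (0.961), ZNF175 (0.956), ZNF800 (0.951), ZNF184 (0.943) and ZFP91-CNTF (0.929) followed the mean most closely. ZNF317 read 6.97, 7.96 and 7.81 in the non-silencing arrays and 7.64, 8.34 and 8.47 in the DcpS arrays. In both groups replicate 1 was low, as it was for the members' median. These genes also followed the replicate axis, with correlations of 0.924, 0.826, 0.858, 0.968 and 0.891 in the same order.

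A minority of 12 members (7.95%) ran against the rest with a correlation under -0.5. The lowest were ZNF358 (-0.889), ZNF512B (-0.809), ZNF277 (-0.80), ZNF32 (-0.682) and ZNF362 (-0.669). ZNF358 read 9.43 in non-silencing replicate 1, against 8.70 and 8.68 in replicates 2 and 3, and 9.23 in DcpS replicate 1. Its correlation with the replicate axis was -0.874. Of the 5 that followed the mean most closely, ZFP91-CNTF was called in a comparison named above, and of the 5 least, ZNF358 and ZNF277 were.

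Position in the genome was compared with the changes, since most C2H2 genes lie in clusters. Of the 145 members placed in the RefSeq gene order (GRCh38.p14), 48 (33.1%) lie on chromosome 19. With LOC550643 siRNA against non-silencing the median change of these 48 was 0.331 log2 units, with 42 above 0, against 0.138 for the 97 on other chromosomes, with 73 above 0. Of the called risers, 3 of the 9 lie on chromosome 19, and so does ZNF428, which fell. The medians on chromosome 19 and elsewhere were 0.200 and 0.120 with Dcp2 siRNA, 0.080 and 0.032 with DcpS siRNA, and 0.070 and 0.026 with GAPDH siRNA. These are descriptions, and the difference between the places was not tested.

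Within a cluster, estimates differed. In a run of 24 neighbouring zinc finger genes on chromosome 19, ZNF567 rose by 0.997 with LOC550643 siRNA, while the other expressed members had estimates between 0.227 (ZNF790) and 0.682 (ZNF850) and were not called. ZNF614 (0.752) lies in a run of 10 with ZNF841 (0.407). ZNF620 (0.811) lies in a run of 3 on chromosome 3 with ZNF621 (0.179). ZNF580 and ZNF581, neighbours in a run of 5, had estimates of -0.09 and -0.01. Member pairs of the same run correlated within groups at a median of 0.139 (59 pairs), and other member pairs at 0.176 (10381 pairs), a median no higher for neighbours. Near-identical paralogs in such clusters can share probe sequence, so the value of a single gene in them is uncertain.

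Other gene lists, chosen by name with the earlier results known, give the setting. The partners of KRAB proteins and other heterochromatin factors (31 of 42 measured) had medians near or below 0 against non-silencing. These were 0.005 with LOC550643 siRNA, -0.08 with Dcp2 siRNA, -0.01 with DcpS siRNA and -0.08 with GAPDH siRNA. With LOC550643 and Dcp2 siRNA limma called none of them (8 and 6 at an unadjusted p under 0.05). With DcpS siRNA CBX1, a heterochromatin protein, was higher by 0.315 (adjusted p = 0.0403) and ZBTB24, a factor of DNA methylation, changed by -0.41 (adjusted p = 0.04537). With GAPDH siRNA CBX5 (-0.61, adjusted p = 0.02183) and the DNA methyltransferase DNMT3B (-0.70, adjusted p = 0.002376) were lower. Of these 4 calls, that of DNMT3B held with any array left out. Those of CBX1, ZBTB24 and CBX5 were lost without 5, 5 and 4 arrays in turn, with adjusted p up to 0.1514, 0.1919 and 0.09955. Set directly, the list lay closer to the zinc finger members: its median was 0.129 for LOC550643 against GAPDH siRNA (22 of 31 above 0, 4 called higher and none lower), where the members had 0.140, and 0.083 against Dcp2 siRNA (23 of 31 above 0), where the members had 0.068. The 4 higher calls stood beside 2.48% of all named genes and 4.56% of the genes of like level.

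Short-lived transcripts outside the family, mostly immediate early genes, had more calls with Dcp2 siRNA than with LOC550643 siRNA. Of 31 measured (50 listed), 9 were higher with Dcp2 siRNA, among them JUN (1.416 log2 units, adjusted p = 0.007324), RHOB (1.333, adjusted p = 0.007883) and KLF6 (0.983, adjusted p = 0.04247), with a median of 0.445. In this comparison 1.05% of all named genes and 2.1% of the genes of like level were called higher. The calls of JUN and RHOB held with any array left out, and that of KLF6 was lost without any of the 6 arrays but non-silencing replicate 3 (0.07365 to 0.1852). With LOC550643 siRNA the median was 0.230 and limma called none (7 at an unadjusted p under 0.05). The 20 listed genes with a mean of at least 6 had a median of 0.29 with LOC550643 siRNA, with 19 above 0. The zinc finger members, held to the same limit, had 0.205. With Dcp2 siRNA these 20 genes had a median of 0.643, also with 19 above 0. Set directly, 4 of the 31 were lower with LOC550643 than with Dcp2 siRNA and none higher, with a median of -0.222, while the zinc finger members had 13 higher and 1 lower. Of all named genes 1.56% were called lower and 1.65% higher there, and of the genes of like level 3.19% and 3.13%.

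Related zinc finger families were compared by the same counts. Among 43 BTB-type genes (ZBTB), LOC550643 siRNA gave a median change of 0.113. The 24 of them with a mean of at least 6, the limit set for the members, had a median of 0.225, with 20 above 0. The members' median was 0.205, so the shift was not particular to them. The 1 BTB call was ZBTB7A, a repressor (0.528, adjusted p = 0.0285), which was also higher with Dcp2 siRNA (0.589, adjusted p = 0.01956) and DcpS siRNA (0.455, adjusted p = 0.03803). Against DcpS siRNA 9 of the 43 were higher with LOC550643 siRNA and 1 was lower, the latter ZBTB2 (-0.54, adjusted p = 0.005152). Of all named genes 3.49% were called higher and 2.91% lower there, and of the genes of like level 6.64% and 5.67%. Among 27 SCAN-type genes limma called none with LOC550643 or Dcp2 siRNA (4 and 5 at an unadjusted p under 0.05), although the 12 of them with a mean of at least 6 had a median of 0.205 with LOC550643 siRNA. Among 26 KLF and SP genes the medians were 0.101 with LOC550643 and 0.118 with Dcp2 siRNA. KLF7 was the member with the smallest adjusted p with Dcp2 siRNA (0.730, adjusted p = 0.007324), and SP8 was called with LOC550643 siRNA (0.506, adjusted p = 0.02838). Among 17 CCCH genes, whose fingers bind RNA, the median with LOC550643 siRNA was 0.021, and ZC3H3, a factor of mRNA export, was lower (-0.67, adjusted p = 0.006946). With single arrays left out, the calls of ZBTB2, KLF7 and ZC3H3 held, while those of SP8 and of ZBTB7A in its 3 comparisons were lost without 3 or more arrays in turn (up to 0.1334 for SP8 and 0.1452 for ZBTB7A). The single palmitoyltransferase gene measured had an estimate of -0.55 with LOC550643 siRNA and was not called.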

How the data were processed

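Values on a log2 scale (base inferred from their range) for 53617 probe sets on 15 arrays were deposited by the authors. Per the submitters' processing notes, they were made with RMA and oligo, which give the arrays like distributions, so a shift of all transcripts cannot be seen. The sources used here give no versions and no genome build of the array. The platform table named 16098 probe sets, and for the 779 genes with several the probe set with the highest mean was used, leaving 14884 genes. The model (limma 3.58.1, R 4.3.3) took all arrays, 1 mean per group and 10 residual degrees of freedom. P-values were two-sided and Benjamini-Hochberg adjusted over the 14884 genes within a comparison, with 0.05 as threshold. Precision is limited by the number of arrays.

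The members and lists were chosen with earlier results of these data known. Named were the 8 largest called changes in each direction against non-silencing, the 3 largest in each direct comparison, the 10 smallest F test p values, the 6 highest members, the members nearest to the limit, the 5 that followed the others most and least, and called members of lists. ZNF652 and ZNF121 against non-silencing, ZFP90, ZNF620 and ZNF614 in further direct comparisons, and members named by their run were added for completeness. Called members of the lists are given in part. In simulated data for LOC550643 against non-silencing over 14884 genes, 97% of changes of 1 log2 unit and 46% of 0.5 were recovered, and 5.92% of calls were false. The simulated noise was normal and independent between genes. The arrays here share a replicate axis that held 24.7% of the variance within groups, so these rates need not hold for them. The alternatives were a replicate block, other normalizations, filters, probe set rules, array weights, a covariate, limma-trend, 2-group fits, other membership limits (5 and 7) and left-out arrays. Promoters and gene order came from RefSeq GRCh38.p14. Protein sequences and domain classes were not used here.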

Additional observations from a re-analysis of the deposited data

Results flagged for a closer look

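Against non-silencing, several members moved in opposite directions with 2 siRNAs, and the direct comparison of those siRNAs, which tests the difference itself, was called by limma. LOC550643 siRNA differed from Dcp2 siRNA for ZFP90 (0.863, from changes of 0.814 and -0.05 against non-silencing), ZNF652 (0.784, from 0.564 and -0.22) and ZNF428 (-0.546, from -0.49 and 0.058). It differed from DcpS siRNA for ZNF770 (0.714, from 0.096 and -0.62) and ZNF692 (0.556, from 0.180 and -0.38), and from GAPDH siRNA for ZNF620 (0.865, from 0.811 and -0.06). Dcp2 siRNA differed from DcpS siRNA for ZNF503 (0.784, from 0.120 and -0.66) and ZNF703 (0.635, from 0.012 and -0.62), and from GAPDH siRNA for ZFP90 (-0.462, from -0.05 and 0.413). DcpS siRNA differed from GAPDH siRNA for ZNF503 (-0.676, from -0.66 and 0.012) and ZNF692 (-0.464, from -0.38 and 0.089). In each pair only the larger of the changes against non-silencing was itself called, so the opposite sign of the smaller is not shown. The groups of 3 arrays were too small for the test of outlying samples.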

How the results depend on the processing

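The array medians of the members had an SD of 0.0818 between replicates, a wide yardstick, and 188 of 190 alternative medians moved by less. Moves within it could still be large beside the value: with the axis covariate Dcp2 against DcpS went from 0.114 to 0.0346 and Dcp2 against GAPDH from 0.0547 to 0.0152, and without non-silencing replicate 1 Dcp2 against non-silencing went from 0.131 to 0.0519. The medians that moved by more were Dcp2 against non-silencing with the axis covariate (0.0338) and DcpS against non-silencing without non-silencing replicate 1 (-0.0394). The counts of called members moved more, 77 of 195 by over 1.5 times. Counts follow in the order LOC550643, Dcp2, DcpS and GAPDH against non-silencing (10, 4, 8 and 2 as reported), then LOC550643 against Dcp2, DcpS and GAPDH (14, 19 and 11), Dcp2 against DcpS and GAPDH (10 and 8), DcpS against GAPDH (15), and the F test (33). Adjusting over genes with a mean of at least 6 alone, fewer tests, moved them to 18, 21 and 17 in the first 3 comparisons, to 32 and 19 for LOC550643 against DcpS and GAPDH, to 21 and 16 for Dcp2 against DcpS and GAPDH, and to 61 for the F test. Adjusting over all probe sets, more tests, gave 6, 1, 5, 1, 7, 9, 4, 4, 2, 9 and 16. With the axis covariate 17, 1, 18 and 7 were called against non-silencing, and 30 and 22 for LOC550643 against DcpS and GAPDH. For the last 2 the calls over all named genes rose too, from 953 to 1432 and from 608 to 1094. Fitting only the 2 groups compared, fewer arrays, gave 3, 0, 2 and 1 against non-silencing, 12 and 5 for LOC550643 against DcpS and GAPDH, 6 and 3 for Dcp2 against DcpS and GAPDH, and 5 for DcpS against GAPDH. The 0 stood beside 49 members at an unadjusted limma p under 0.05. Array weights gave 9 for Dcp2 against non-silencing, 17 for LOC550643 against GAPDH and 15 for Dcp2 against GAPDH; the cause was not tested. Of 624 alternative fits of named changes, 531 kept their call, 93 lost it and 0 reversed.

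With single arrays left out the counts ranged from 6 to 10, 1 to 5, 4 to 8 and 1 to 2 against non-silencing, from 3 to 10, 10 to 24 and 4 to 7 for LOC550643 against Dcp2, DcpS and GAPDH, from 4 to 7 and 1 to 10 for Dcp2 against DcpS and GAPDH, from 8 to 12 for DcpS against GAPDH, and from 23 to 35 for the F test. The medians ranged from 0.1381 to 0.2612, 0.0519 to 0.1813, -0.0394 to 0.0796 and -0.0099 to 0.0933 against non-silencing, and from -0.0427 to 0.0756 for DcpS against GAPDH. Arrays sharing a replicate number correlated in their deviations from group means at -0.198 to 0.394 (median 0.018), over 0.1 in 9 of 30 pairs. Arrays of different number in different groups correlated at -0.314 to 0.288 (median 0.001), over 0.1 in 14 of 60 pairs. Of the 15 arrays, 6 correlated best with their own number. These values cannot decide whether the numbers pair the samples, and the labels do not say. With the replicate block Dcp2 against non-silencing had 10 calls and GAPDH against non-silencing 4, and the other counts stayed within 1.5 times (LOC550643 against non-silencing 13).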
